A study of Mus musculus with 2 samples.

Results

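Phox2a, Hand2, Tlx2, Zeb2 and Tbx3 are transcription factors of the enteric neural crest, the migratory population that builds the nervous system of the gut. They were taken by name from the gene and transcript tables of 2 total RNA-seq libraries of mouse intestine, and make up 5 of the 43346 genes there. Both libraries came from strain B6NCrl at embryonic day 14.5 (E14.5), with no treatment and no engineered allele named, and each was made from 10 ng of RNA longer than 200 bases. By the labels, 1 pup gave each sample, with collection dates 2 days apart (day 17 for replicate 1, day 15 for replicate 2). The labels also list the sex as pooled male and female, and the donor record and the pup and dam numbers are the same for both samples. There was thus 1 group of 2 replicates and no contrast between conditions. The labels number the samples as biological replicates 1 and 2. No p-value is given, and SDs measure only the spread between these samples. That spread may be technical, since apart from this numbering only the collection dates show them as separate animals.

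Neural crest cells leave the hindbrain, enter the foregut and move along the gut, where they divide and become enteric neurons and glia. Homeodomain, basic helix-loop-helix, T-box and zinc finger factors mark successive steps of that path. Phox2a is a homeodomain factor of autonomic neurons, and Tlx2 is a homeodomain factor whose loss in mice gives abnormal enteric innervation and megacolon. Hand2 is a basic helix-loop-helix factor needed in mice for enteric neurons to mature. Tbx3 is a T-box repressor. Zeb2 is a zinc finger and homeodomain repressor, and its loss in humans causes Mowat-Wilson syndrome, often with Hirschsprung disease. Hand2, Tbx3 and Zeb2 are also known from mesenchyme and Zeb2 from macrophages, so these genes are not specific to crest. In bulk tissue, fewer cells of a type and less RNA per cell cannot be told apart.

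The sequences below mark some of the places at which the transcripts of these genes part company. The first is the coding exon that sets one Tbx3 protein apart from the other, known as exon 2a, at chr5:119675243-119675302 on the plus strand of GRCm38 (mm10). It is printed whole in capitals from the GENCODE transcript.
Tbx3 exon 2a: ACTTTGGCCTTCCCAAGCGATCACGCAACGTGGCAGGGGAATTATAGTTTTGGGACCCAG
It is 60 bases long, or 20 codons with no base left over. The next pair are the edges of the second intron of Tlx2, 79 bases at chr6:83068975-83069053 on the minus strand, with intron bases in capitals and exon bases in lower case. One annotated transcript keeps this intron.
Tlx2 intron start: caccaagtggcgGTGAGGCGCGGG
Tlx2 intron end: CCGCTCGCCCAGgcgccagaccgc
The intron opens with GT and closes with AG. In the annotation, the reading frame that runs into it ends after its first base, at the stop codon TGA formed by intron bases 2 to 4. The last pair are the 250 bases before 2 start sites in RefSeq on GRCm38.p6. Hand2 is shown because an antisense transcript begins beside it (chr8:57320733-57320982, plus strand). The Zeb2 window precedes 1 start within the distal of its start regions described below (chr2:45113280-45113529, minus strand).
Hand2 promoter: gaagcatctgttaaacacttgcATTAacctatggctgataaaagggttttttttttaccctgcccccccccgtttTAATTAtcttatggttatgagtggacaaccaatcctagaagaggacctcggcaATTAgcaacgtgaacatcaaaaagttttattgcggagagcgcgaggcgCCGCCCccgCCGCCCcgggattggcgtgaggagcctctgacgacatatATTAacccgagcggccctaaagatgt
Zeb2 promoter: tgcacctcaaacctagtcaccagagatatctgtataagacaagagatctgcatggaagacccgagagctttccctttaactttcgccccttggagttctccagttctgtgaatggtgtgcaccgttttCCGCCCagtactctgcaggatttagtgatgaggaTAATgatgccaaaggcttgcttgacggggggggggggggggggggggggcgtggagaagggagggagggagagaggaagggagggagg
Capitals mark TAAT, the core of many homeodomain sites, and the GC box GGGCGG, each read on both strands. The Hand2 window held 5 TAAT matches, of which 2 overlap, and 2 GC boxes, and the Zeb2 window held 1 of each. At least 1 TAAT occurred in 54.9% of 32851 RefSeq promoters of the same length and at least 1 GC box in 32.7%. The E-box CANNTG, the core of basic helix-loop-helix sites, occurred at 2 places in the Hand2 window and at none in the Zeb2 window, against 66.2% of promoters with at least 1. CACCTG, the E-box form bound by Zeb factors, was in neither window and in 17.2% of promoters. These are matches of letters, not binding sites.

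The libraries held 32938592 estimated reads on genes in replicate 1 and 32371363 in replicate 2. Epithelial Epcam had 516.79 and 505.27 TPM (transcript abundance per length, scaled to a fixed total in each library) in replicates 1 and 2, mesenchymal Col3a1 1672.55 and 1496.31 TPM, and neuronal Gap43 87.12 and 81.34 TPM, so markers of the labelled tissue were present. Replicate 2 also held pancreatic RNA that replicate 1 nearly lacked. The digestive enzyme gene Ctrb1 had 0 counts in replicate 1, which allows up to 0.164 TPM, and 300.07 TPM in replicate 2. The insulin gene Ins2 had 0 counts in replicate 1, allowing up to 0.371 TPM, and 155.34 TPM in replicate 2. The 6 pancreas genes, picked after their values were seen, summed to 4.04 TPM in replicate 1 and 996 TPM in replicate 2. The part of this RNA in the results below was not tested.

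All 5 factors were detected, meaning at least 1 TPM in both libraries, as were 61.3% of the 21474 protein-coding genes. Zeb2 was the highest at 36.1 ± 2.39 TPM (SD, n = 2, as for all such values here), followed by Tlx2 at 30.7 ± 4.53, Tbx3 at 28.7 ± 0.0283, Hand2 at 12.1 ± 1.62 and Phox2a at 5.54 ± 0.297 TPM. Zeb2 had a higher mean than 80.9% of protein-coding genes, Tlx2 than 78.2%, Tbx3 than 77%, Hand2 than 62.1% and Phox2a than 51.3%. Among detected protein-coding genes alone, the shares were 68.9% for Zeb2, 64.6% for Tlx2, 62.5% for Tbx3, 38.4% for Hand2 and 20.8% for Phox2a. The level of Zeb2 was 7.09 times that of Phox2a in replicate 1 and 5.98 times in replicate 2.

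**Figure D1:**
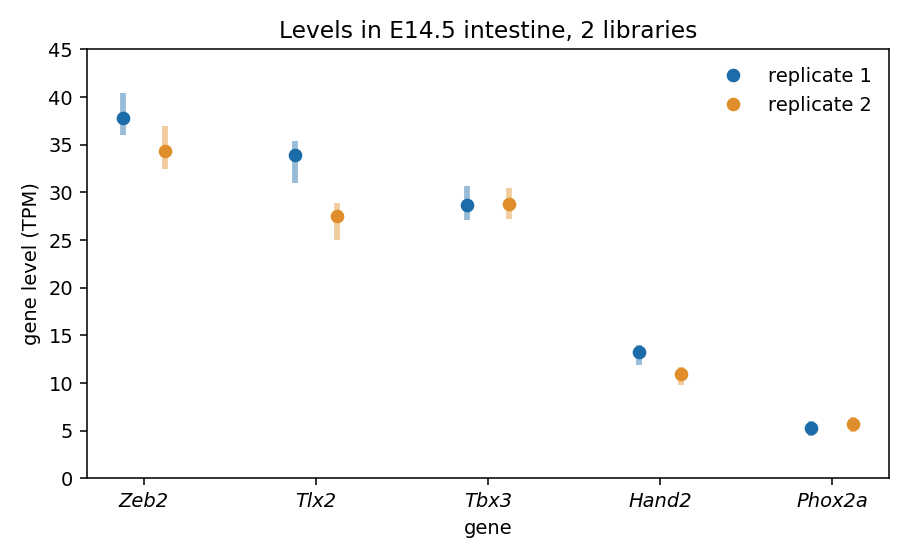
Level of each factor in TPM (vertical axis, linear) in replicate 1 (left point of each pair) and replicate 2, with the deposited interval as a bar. Zeb2 was highest and Phox2a lowest in both libraries, and the bars of Tlx2 and of Hand2 do not overlap between libraries.

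Phox2a (ENSMUSG00000007946.10, chr7:101818313-101822726, plus strand) had 5.33 TPM in replicate 1 and 5.75 TPM in replicate 2, from 187 and 204 reads. The deposited intervals, 4.48 to 5.98 and 4.86 to 6.41 TPM, overlap. The ratio of replicate 1 over replicate 2 was 0.927, with an exact counting interval of 0.756 to 1.14. This was the least deeply covered of the factors, and its ratio has the widest interval.

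Tlx2 (ENSMUSG00000068327.4, chr6:83068324-83070293, minus strand) had 33.93 TPM in replicate 1 and 27.52 TPM in replicate 2, from 974 and 812 reads. Its intervals, 31.0 to 35.41 and 25.01 to 28.91 TPM, do not overlap, and replicate 1 was the higher. The ratio was 1.23 (counting interval 1.12 to 1.35). Hand2 (ENSMUSG00000038193.3, chr8:57320983-57324633, plus strand) had 13.26 TPM in replicate 1 and 10.97 TPM in replicate 2, from 658 and 551 reads. Its intervals, 11.87 to 13.96 and 9.78 to 11.68 TPM, do not overlap either, again with replicate 1 higher, and the ratio was 1.21 (1.08 to 1.36).

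Tbx3 (ENSMUSG00000018604.14, chr5:119670669-119684724, plus strand) was nearly equal in the libraries, at 28.71 TPM in replicate 1 and 28.75 TPM in replicate 2, from 3036 and 3115 reads. The intervals were 27.13 to 30.64 and 27.19 to 30.48 TPM, and the ratio 0.999 (0.95 to 1.05). Zeb2 (ENSMUSG00000026872.12, chr2:44983632-45117395, minus strand) had 37.77 TPM in replicate 1 and 34.39 TPM in replicate 2, from 4271 and 3895 reads. Its intervals, 35.99 to 40.45 and 32.42 to 37.02 TPM, overlap, and the ratio was 1.1 (1.05 to 1.15).

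Neighbours in the order of levels were not all separate. Tlx2 was 1.18 times Tbx3 in replicate 1 and 0.957 times Tbx3 in replicate 2, so these factors changed places between libraries. Zeb2 was above Tlx2 in both, by 1.11 times in replicate 1 and 1.25 times in replicate 2. Tbx3 was 2.17 and 2.62 times Hand2, and Hand2 was 2.49 and 1.91 times Phox2a, in replicates 1 and 2.

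No factor met the rule for a difference between libraries, which asks for a mean of at least 5 TPM, a log2(TPM + 1) difference of at least 1 and intervals that do not overlap. Of 11324 genes at that level, 0.495% met it. By intervals alone, 2 of the 5 factors differed, Tlx2 and Hand2, against 25.2% of the genes at that level. Both were higher in replicate 1, as were 2032 of the 2851 genes at that level with intervals apart (17.9% of all 11324). Among 7672 protein-coding genes with means of 5 to 50 TPM, the central 95% of ratios ran from 0.751 to 1.33, and all 5 factors lay inside that range. The log2 ratio of Tlx2 (0.30) was larger in size than those of 88.1% of these genes and that of Hand2 (0.27) than 84.7%, against 53% for Zeb2, 43.9% for Phox2a and 1.01% for Tbx3. The Hand2 intervals overlap after TMM or DESeq2 scaling, and those of Zeb2 separate after spike-in scaling. The 2 libraries were collected on different days, and collection day and replicate cannot be told apart.

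**Figure D2:**
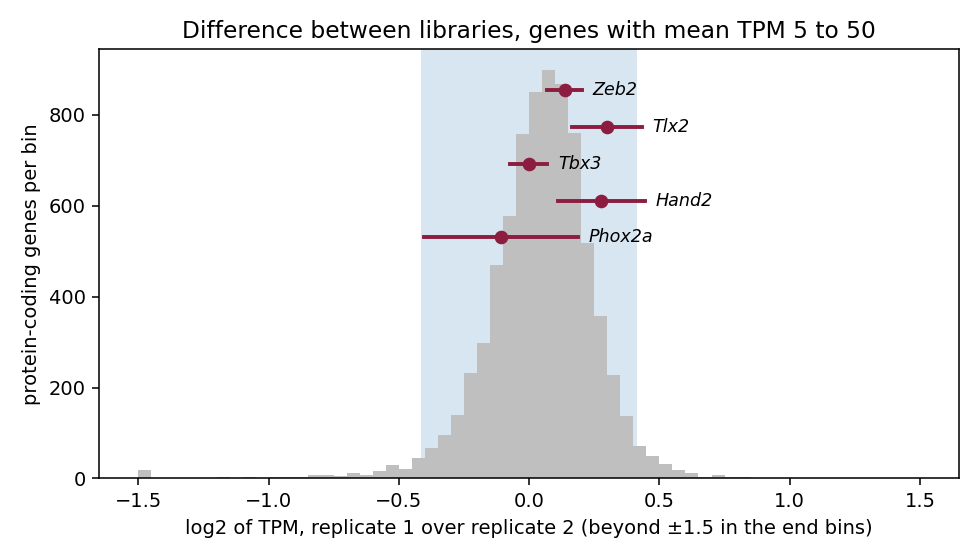
Histogram of log2 TPM ratios, replicate 1 over replicate 2, for 7672 protein-coding genes with mean TPM of 5 to 50 (grey; shaded, the central 95%), with the 5 factors as points and their counting intervals as lines at arbitrary heights. Tlx2 and Hand2 lie to the right of the bulk and Tbx3 close to 0, and all 5 points fall in the shaded range.

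Lists of marker genes gave the surroundings of these differences. Of 14 enteric neuron genes, 10 were higher in replicate 1, with a median log2 ratio of 0.10 over all 14. In 5 of the 14 the intervals do not overlap, each with replicate 1 higher, which held for 17.9% of genes with means of at least 5 TPM. These were, named after their values were seen, Elavl4 (ratio 1.23), Nefl (1.21), Nefm (1.29), Gfra1 (1.2) and Chrna3 (1.2). Picking genes by intervals that do not overlap favours larger ratios, and 4 of the 14 were higher in replicate 2. By mean level the highest of the 14 was the growth cone gene Gap43, given above. The lowest was Dcx, a microtubule gene of young neurons, with 3.67 TPM in replicate 1 and 3.77 TPM in replicate 2. The 14 genes summed to 532 TPM in replicate 1 and 487 TPM in replicate 2. Of 12 mesenchyme genes, led by Col3a1, 6 were higher in replicate 1, all 6 with intervals that do not overlap (against the same 17.9%), and the median log2 ratio was 0.15 over the 10 detected. Barx1, a stomach mesenchyme factor, was the lowest of these, with 0.2 and 0.23 TPM in replicates 1 and 2. Over 11297 genes the median log2 ratio was 0.05. The part of neuron or mesenchyme content in the Tlx2 and Hand2 values was not tested.

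Crest progenitor and glia genes were led by Ednrb, the endothelin receptor of migrating crest, at 150.68 TPM in replicate 1 and 129.76 TPM in replicate 2. The astrocyte and mature glia protein gene Gfap had 0.46 TPM in replicate 1 and 0.22 TPM in replicate 2, the lowest of the list. Of the 10, 7 were detected, against 61.3% of protein-coding genes, and the median log2 ratio of the 7 was 0.05. Sympathetic and adrenal genes were checked because Phox2a and Hand2 also act in sympathetic neurons. Of 10, 5 were detected, against the same 61.3%. They were led by Ddc, an amine-forming enzyme that gut endocrine cells also make, with 27.64 TPM in replicate 1 and 29.69 TPM in replicate 2. The tyrosine hydroxylase gene Th had 1.07 and 0.84 TPM, and the noradrenaline transporter gene Slc6a2 0.01 and 0.04 TPM. Others of the list, named after their values were seen, had higher means. The vesicular monoamine transporter gene Slc18a2 had 10.79 TPM in replicate 1 and 10.29 TPM in replicate 2, its relative Slc18a1 had 1.73 and 1.88 TPM, and Dbh, the noradrenaline-forming enzyme gene, had 1.65 and 0.83 TPM. Chga, a granule gene of neuroendocrine cells, had 5.1 and 10.84 TPM, a ratio of 0.47, and was the 1 gene of the list whose intervals do not overlap. The pancreas genes were also higher in replicate 2, and their part in the Chga value was not tested. The adrenaline-forming enzyme gene Pnmt had 0 counts in both. By counting alone that allows up to 0.215 TPM in replicate 1 and 0.213 TPM in replicate 2, while its deposited upper bound was 0.9 TPM in both.

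Macrophage genes, of interest because macrophages can express Zeb2, summed to 198 TPM in replicate 1 and 204 TPM in replicate 2. All 8 were detected, against 61.3% of protein-coding genes. By mean level they ran from Lyz2, a lysozyme, at 49.84 and 56.83 TPM to Adgre1, the F4/80 antigen, at 4.33 and 3.68 TPM. The 8 endothelial genes, which ran from Egfl7 at 102.2 and 106.08 TPM to the angiopoietin receptor Tek at 10.79 and 9.48 TPM, summed to 302 TPM in replicate 1 and 292 TPM in replicate 2. The 8 epithelial genes, with Epcam highest and the factor Grhl2 lowest at 7.61 and 7.45 TPM, summed to 1645 and 1781 TPM. How much of each factor came from which cells was not measured.

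The leading transcript, the one with the highest share of its gene's TPM, was the same in both libraries for Zeb2, Tbx3 and Tlx2. Phox2a and Hand2 have 1 quantified transcript each, Phox2a-201 and Hand2-201, so their leading transcript could not differ. Phox2a-201 and Hand2-201 encode 280 and 217 codons. Exon structures and codon counts here come from GENCODE M21 on the same assembly, later than the M4 used for the values. Of the 23 transcripts of the 5 factors, 15 have the same length in both releases.

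Tlx2 had 2 transcripts, and the one that keeps the second intron led in both libraries. Tlx2-202 took 58.14% of Tlx2 TPM in replicate 1 and 62.9% in replicate 2, or 19.73 TPM (interval 17.21 to 21.17) and 17.31 TPM (15.05 to 18.75). Tlx2-201, in which the intron is spliced, took 41.86% and 37.1%, or 14.2 and 10.21 TPM. By the annotation, Tlx2-201 encodes 284 codons and Tlx2-202 encodes 213, its frame closing at the stop codon just inside the kept intron. The share of the intron-keeping transcript averaged 60.5% ± 3.36. Total RNA can hold unspliced precursor, and kept intron in mature message and unspliced precursor cannot be told apart here. In the release used for the values, Tlx2-202 has 1514 bases and Tlx2-201 has 1086, shorter than the 1236 of M21. The 2 transcripts thus differ by more than the 79-base intron, and how that bears on the split was not tested.

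Tbx3 was split among 3 coding transcripts. Tbx3-203 took 46.13% in replicate 1 and 42.68% in replicate 2, Tbx3-201 took 28.73% and 36.16%, and Tbx3-202 took 20.44% and 17.95%. Tbx3-201 alone carries exon 2a, printed above, and encodes 741 codons against 721 for the others. Its level was 8.25 TPM (interval 5.37 to 10.38) in replicate 1 and 10.39 TPM (7.82 to 12.34) in replicate 2, intervals that overlap. Among the coding transcripts the exon 2a form had 30.2% in replicate 1 and 37.3% in replicate 2, with a mean of 33.8% ± 5.09. Transcripts for both protein forms were thus listed in both libraries, with those for the shorter form in the majority by these estimates. Protein was not measured.

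Zeb2 had 14 transcripts, of which 4 reached 10% in either library. Zeb2-201, which starts at the proximal first exon and encodes 1259 codons, took 37.81% in replicate 1 and 31.6% in replicate 2. Zeb2-202, from the distal first exon with 1215 codons, took 16.82% and 20.25%. Zeb2-209, an intron-retaining transcript with no coding sequence, took 16.47% and 14.96%, and Zeb2-213, with 220 codons, took 9.14% and 11.15%. Transcripts with a full-length reading frame made up 63.7% of Zeb2 TPM in replicate 1 and 59.7% in replicate 2. Those annotated as retained introns made up 19.8% and 19.5%.

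By their M21 start sites the Zeb2 transcripts fell into groups. Of the 14, 8 have the same length in M21 and in the release used for the values. Zeb2-201 (5335 bases in M21, 5282 in that release) and Zeb2-202 (5624 and 9113) do not. How that bears on the Zeb2 shares here and above was not tested. A group of 8 transcripts starts between 45112890 and 45113508 on chromosome 2, the distal region, and took 52.3% of Zeb2 TPM in replicate 1 and 56.3% in replicate 2. The sequence printed above directly precedes the Zeb2-202 start at 45113279, and Zeb2-206 and Zeb2-207 of this group start inside it. Another 4 start between 45110288 and 45110733, the proximal region nearer the rest of the gene, and took 44.4% and 41.4%. A single transcript starts farther out at 45117395 and took 3.36% and 2.27%, and the last, starting at 45111076, was at 0 TPM in both. Of the 10 transcripts of the 5 factors with means of at least 5 TPM, 2 had intervals that do not overlap, against 18.4% of 15922 transcripts at that level. One is the only Hand2 transcript. The other is Zeb2-201, with 14.28 TPM (12.38 to 15.2) in replicate 1 and 10.87 TPM (8.98 to 11.88) in replicate 2.

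**Figure D3:**
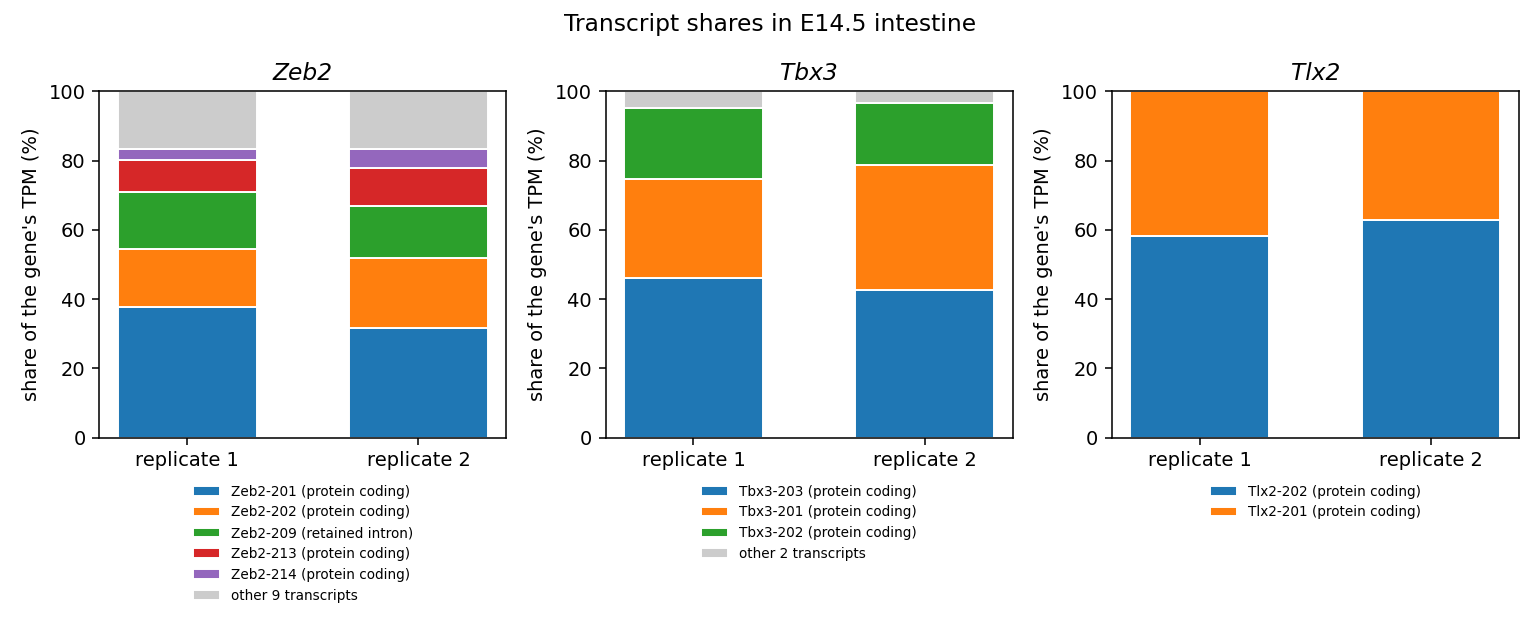
Share of each gene's TPM (vertical axis, %) taken by its transcripts, for Zeb2, Tbx3 and Tlx2, with replicate 1 left of replicate 2; transcripts under 5% in both libraries are pooled in grey. The same transcript leads in both libraries for each gene: Zeb2-201, Tbx3-203 and Tlx2-202.

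Genes that overlap a factor or start within 20 kb of it gave the local context, and nothing in the files shows whether strand was used in counting. Hand2os1, a long non-coding RNA antisense to Hand2, had 75.99 TPM in replicate 1 and 68.3 TPM in replicate 2, which is 5.73 and 6.23 times the level of Hand2. Its 8 transcripts of 486 to 877 bases drew 962 and 915 reads. RefSeq places its start 124 bases upstream of the Hand2 start, in the window printed above. In GENCODE M21 the whole spans of these genes, introns included, overlap by 3251 bases, and the overlap of their exons was not measured. Reads from Hand2 and Hand2os1 cannot be told apart where exons of the genes overlap, if any do and strand was not used. Downstream on the Hand2 strand, 5033428I22Rik had 3.68 and 3.22 TPM in replicates 1 and 2, and Gm34030 was not matched in the tables.

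The other antisense genes were low. Zeb2os had 0.91 TPM in replicate 1 and 1.24 TPM in replicate 2, and Tbx3os1 had 3.03 and 3.26 TPM. The other 4 genes inside Zeb2, Mir5129, Gm27761, Gm27404 and Gm27645, were listed at 0. Inppl1, a lipid phosphatase gene that overlaps the 3′ end of Phox2a by 95 bases, had 9.15 and 9.56 TPM, and nearby Gm10602 had 1.75 and 1.61 TPM. Tlx2 overlaps no gene but sits among active ones. Aup1 had 80.89 and 76.11 TPM, Htra2 35.59 and 33.12 TPM, Pcgf1 34.4 and 32.39 TPM and Dqx1 5.04 and 4.94 TPM in replicates 1 and 2, while Lbx2 (0.84 and 1.05 TPM) and Gm37092 (0.52 and 0.6 TPM) were low. The ratios of Aup1 (1.06), Htra2 (1.07) and Pcgf1 (1.06) were all below the 1.23 of Tlx2. The counting intervals of Htra2 (0.985 to 1.17) and Pcgf1 (0.942 to 1.2) overlap that of Tlx2 (1.12 to 1.35). The interval of Aup1 (1.01 to 1.12) reaches the lower end of the Tlx2 interval as rounded.

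Family members were compared for Hand2, Tlx2, Zeb2 and Tbx3. Hand2 was below Hand1, a paralog known from gut mesenchyme, which had 35.07 TPM in replicate 1 and 28.66 TPM in replicate 2, and the Hand2 level was 0.378 and 0.383 times that of Hand1. The ratio of replicate 1 over replicate 2 was 1.22 for Hand1 and 1.21 for Hand2.

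Tlx2 was nearly alone in its family, with 99.5% of the summed TPM of the 3 genes in replicate 1 and 99% in replicate 2. Tlx1, a spleen factor, had 0.06 and 0.13 TPM and Tlx3, a factor of spinal and hindbrain neurons, 0.12 and 0.15 TPM, all from 6 reads or fewer. Zeb2 was 2.05 times its paralog Zeb1 in replicate 1 and 1.98 times in replicate 2, with Zeb1 at 18.46 and 17.4 TPM. Tbx3 was level with Mga, a broadly expressed factor that joins a T-box to a Max-binding domain, which had 30.76 and 27.64 TPM. Tbx2, the closest relative of Tbx3, had 5.68 and 6.05 TPM. The other 11 T-box genes checked (Tbx1, Tbx4, Tbx5, Tbx15, Tbx18, Tbx19, Tbx20, Tbx21, Tbx22, Tbr1 and Eomes) stayed at or below 0.33 TPM in both libraries.

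**Figure D4:**
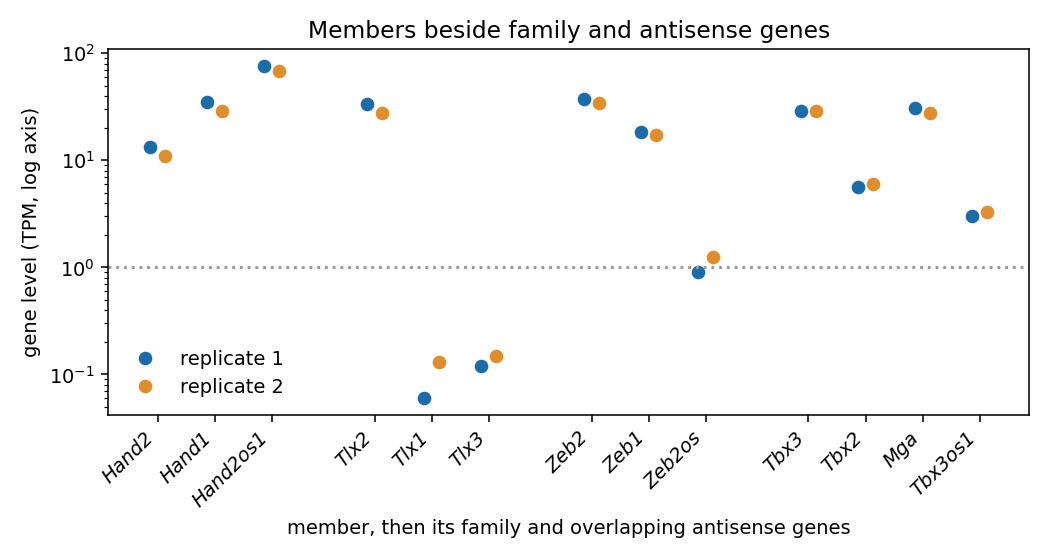
Level in TPM (log axis) of Hand2, Tlx2, Zeb2 and Tbx3, each followed by family members and overlapping antisense genes, in replicate 1 (left point of each pair) and replicate 2; the dotted line marks 1 TPM. Tlx2 stands far above Tlx1 and Tlx3, while Hand2 lies below Hand1, and Hand2os1 is the highest point.

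Of 15 other transcription factors known from enteric crest, neurons or glia, 11 were detected, against 61.3% of protein-coding genes. Sox10, the factor of crest progenitors and glia, had 13.32 TPM in replicate 1 and 13.29 TPM in replicate 2, near the level of Hand2. Sox11, a factor of immature neurons also made in other embryonic tissues, was the highest with 57.31 and 47.02 TPM, a ratio of 1.22 (counting interval 1.19 to 1.25). Hoxb5, a regional factor of gut crest and mesenchyme, had 40.67 and 38.84 TPM.

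Lower in the order came Pbx3, a homeodomain cofactor (19.32 TPM in replicate 1 and 20.9 TPM in replicate 2), Sox8, a relative of Sox10 (7.72 and 7.47), and Ebf1 (6.53 and 7.65). Foxd3, an early crest factor, was barely detected, with 1.08 and 1.01 TPM, as was Insm1, a factor of neuronal and endocrine precursors, with 1.23 and 1.4 TPM. The remaining 4 were below 1 TPM in both libraries. Sox2 had 0.31 and 0.43 TPM and the premigratory crest factor Tfap2a 0.26 and 0.27 TPM. Pax3, another early crest factor, had 0 counts in replicate 1 and 0.01 TPM in replicate 2. Tfap2b had 0.05 TPM in replicate 1 and 0 counts in replicate 2. By counting alone, 0 counts allow up to 0.0391 TPM for Pax3 and 0.0553 TPM for Tfap2b in those libraries. The deposited upper bounds there were 0.08 and 0.45 TPM.

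Isl1, a LIM homeodomain factor of neurons and of pancreatic endocrine cells, had the largest difference of the detected factors in the list, with 2.11 TPM in replicate 1 and 3.92 TPM in replicate 2, a ratio of 0.538 (0.42 to 0.686). The pancreas genes given above were higher in the same library, and their part in the Isl1 value was not tested. The median log2 ratio of the 11 detected factors was 0.05.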

How the data were processed

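Total RNA was sequenced in 2 libraries of E14.5 mouse intestine. Per the deposited notes, reads were aligned to mm10 and quantified from a transcriptome alignment with GENCODE M4, each library on its own; the sources used here name no aligner, quantifier or version. The deposited tables give, per the file headers, an expected count (an estimated, not always whole, read number), TPM and its posterior mean, FPKM, and each transcript's percent of its gene's TPM. Interval bounds, deposited without a stated level, were handled as a score. TPM includes spike-ins, 9.77% of TPM in replicate 1 and 10.4% in replicate 2.

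Identifiers were matched to symbols without versions; 42462 of 43346 matched. Ratios of replicate 1 over replicate 2 carry exact (Clopper-Pearson) 95% intervals from rounded counts, rescaled to TPM. Intervals, and the limits for 0 counts (3 counts), cover counting error only. The difference rule (pseudocount 1) was tested on simulated data. TMM factors came from edgeR 4.0.16 and size factors from DESeq2 1.42.0, on counts rounded to whole numbers, with R 4.3.3; neither was used for a test. Other steps used Python 3.11.15 and scipy 1.17.1. Genes named are the 5 factors, their transcripts at 10% or more, all genes of the family, partner and crest factor lists, the highest, lowest and under 1 TPM (mean) genes of each marker list, and genes overlapping or starting within 20 kb; some genes of these lists enter the counts and are not reported here by name. Pancreas genes were added after their values were seen. The members and lists were chosen with earlier results of these data known.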

Additional observations from a re-analysis of the deposited data

How the results depend on the processing

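All 5 factors stayed detected at thresholds of 0.5 and 5 TPM, by 10 counts, by posterior mean, after rescaling over nuclear protein-coding genes, by FPKM, and in each library alone. The count of crest factors detected, 11 of 15, was 8 at 5 TPM, 9 by FPKM and 13 by counts, and 11 under the other 5 settings. No factor met the difference rule under the 7 alternatives, while the count over all genes, 56, was 182 with a log2 difference of 0.5 and 116 with no minimum level. The leading transcripts of Zeb2, Tbx3 and Tlx2 were the same by posterior mean.

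Log2 ratios ranged over scalings, posterior mean and pseudocount from -0.16 to -0.02 for Phox2a, 0.22 to 0.36 for Hand2, 0.25 to 0.39 for Tlx2, 0.09 to 0.23 for Zeb2 and -0.05 to 0.09 for Tbx3, whose direction is therefore not defined. Spike-in scaling moved the median of all genes to 0.14. Intervals were apart for 2 factors as deposited, 1 (Tlx2) after TMM or DESeq2 scaling and 3 after spike-in scaling. No paired analysis was possible because there is only 1 group. Transcript shares rest on reads split by an estimate, and with 2 libraries the spread itself is poorly known. Phox2a, with 187 and 204 reads in replicates 1 and 2, has the least depth.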

Other observations

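Genes for proteins known to bind these factors or their families were all detected as RNA, 16 of 16, against 61.3% of protein-coding genes. The E proteins, which pair with basic helix-loop-helix factors such as Hand2, were well above Hand2 itself: Tcf3 had 84.85 TPM in replicate 1 and 90.82 TPM in replicate 2, Tcf4 81.06 and 74.37 TPM, and Tcf12 46.93 and 44.73 TPM. The CtBP corepressors, which bind Zeb factors, included Ctbp1 with 217.16 and 225.53 TPM and Ctbp2 with 87.82 and 91.4 TPM. Of the NuRD complex, also a Zeb2 partner, Rbbp4 had 274.57 and 257.93 TPM, Chd4 59.37 and 59.67 TPM, Mta2 32.06 and 31.51 TPM and Mta1 16.78 and 13.77 TPM.

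The Smad proteins, signal carriers that bind Zeb2, ran from Smad1 at 42.46 TPM in replicate 1 and 37.07 TPM in replicate 2, through Smad2 at 38.38 and 37.21 TPM and Smad5 at 31.41 and 29.3 TPM, to Smad3 at 11.29 and 9.94 TPM. The Pbx homeodomain cofactors of the Tlx family included Pbx2, with 10.79 TPM in replicate 1 and 9.36 TPM in replicate 2, and Pbx3, given above. The median log2 ratio of the 16 genes was 0.08. The highest ratio of the 16, picked by its value, was 1.22 for Mta1, and 5 of the 16 were higher in replicate 2.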
